A study of Mus musculus with 3 samples.

Results

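The Wnt genes described here are 54 genes of the Wnt pathway measured in the early mouse kidney, out of 14047 genes with a value on all 3 arrays. They were chosen by symbol, as the Wnt ligands, their Frizzled and Lrp receptors, secreted antagonists, the R-spondin axis, cytoplasmic and nuclear transducers and feedback targets, leaving out Wnt4, Wnt9b and Wnt11. Of 63 symbols in these groups, 55 had a probe assigned to a single symbol, and Lrp6, a co-receptor, had a probe with no value on any array. Sfrp3 is listed under its other symbol, Frzb, with values on arrays 1 and 3 alone. Wnt9a, Fzd10, Dkk4, Lgr4, Lgr6, Znrf3 and Tcf7 were not analysed here.

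Each array compared metanephroi of 11.5 days post coitum (dpc) with metanephric mesenchyme of 10.5 dpc, both microdissected from CD1 mouse embryos as a pool of both sexes and labelled as amplified RNA. The metanephros is the definitive kidney, and at the later age it also holds the ureteric bud, the epithelial outgrowth that the mesenchyme attracts. Arrays 1 and 2 carried the dyes in the order red/green and array 3 in the order green/red. The values are log2 ratios of both channels of an array, so a value of 1 is a 2-fold ratio, and levels in either tissue are not known. The sources do not state which tissue stands on top of the ratio. Ratios are therefore called positive or negative, and neither sign is assigned to an age. Nor do they state whether array 3 was turned to match the others before deposit. It is used as deposited, and every mean, sign pattern and statement on both dye orders below rests on that. Array 3 is the 1 array of its dye order, so an effect of the dye, of that array or of its direction cannot be told apart. The labels do not say whether the arrays hold separate dissections, so the spread between them may be technical. In such bulk tissue, fewer cells of a type and less RNA per cell cannot be told apart.

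Wnt proteins are secreted, lipid-modified ligands that bind Frizzled receptors on the cell surface. With the co-receptors Lrp5 and Lrp6 they halt the breakdown of beta-catenin, which then enters the nucleus and activates target genes with TCF and LEF factors, while other ligands act through routes without beta-catenin. In the mouse kidney, Wnt9b from the ureteric bud and Wnt4 in the mesenchyme drive the mesenchyme to form nephrons, and Wnt11 at the bud tips promotes branching.

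Gene probes with a value numbered 19883 to 21396 per array. Positive means were found for the metanephric mesenchyme gene Wt1 (1.75 ± 0.04, SD, n = 3), the renal stroma gene Foxd1 (1.56 ± 0.17) and the ureteric bud gene Calb1 (1.16 ± 0.10), while the bud receptor gene Ret had -0.43 ± 0.11. Of 9 mesenchyme markers 3 were positive and 1 negative on all arrays, of 7 bud markers 4 and 1, and of 3 stroma markers 3 and 0. As deposited, all 8 limb, somite and muscle markers and all 6 endothelial markers were negative on every array, array 3 included. Their median means were -1.86 and -0.51. Of 4 neural markers 1 was positive and 1 negative on all arrays. Over all genes the shares were 22.9% and 22.5%. These lists were chosen with earlier results of these data known. The part of limb, muscle, endothelial or other such cells in the Wnt ratios below was not tested.

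Most Wnt members lay on the negative side. Their mean ratio over the 3 arrays was negative for 37 and positive for 17, which is 68.5% negative beside 50.2% of all genes and 31.5% positive beside 49.8%. Their median was -0.27, beside -0.00195 over all genes, and this difference was not tested. With array 3 turned, 33 means were negative (61.1%, against 45.4% of all genes) and the median was -0.13, and without array 2 the median was -0.17. Means ran from -1.73 for Wnt2 to 1.54 for Wnt8a. The tilt was seen on arrays 1 and 2, where the members' medians were -0.29 on each, against 0.04 on each over all genes. On array 3 the members' median was -0.01 and that of all genes was -0.06. With array 3 given the same weight as arrays 1 and 2 together, through a dye term, the members' median was -0.15.

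No member passed limma's moderated test of the mean ratio against 0 once adjusted over all genes by Benjamini-Hochberg at 0.05, which 0% of all genes passed. The lowest adjusted p of any member was 0.149. At an unadjusted p under 0.05 the members counted 4 on the positive side, which is 7.41% of them against 9.89% of all genes, and 6 on the negative side, which is 11.1% against 9.69%. These shares were near those of all genes. The 4 positive genes were Wnt8a, Dkk2, Rspo3 and Rnf43, and the 6 negative genes were Wnt2, Wnt6, Fzd8, Dvl2, Nkd1 and Nkd2. Without array 1 the counts were 2 positive and 3 negative, without array 2 they were 1 and 4, and without array 3 they were 5 and 14. The counts over all genes, of either sign, moved as well. They were 1156, 1453 and 2943 without array 1, 2 and 3, against 2750 with all arrays. The sign was negative on all 3 arrays for 15 members (27.8%, against 22.5% of all genes) and positive on all 3 for 10 (18.5%, against 22.9%). With each array centred on its median, 12 members were negative and 9 positive on every array. Wnt10a, Wif1 and Axin2, all near 0 on array 3, then left the negative ones. The matching shares of all genes are not given here.

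**Figure D1:**
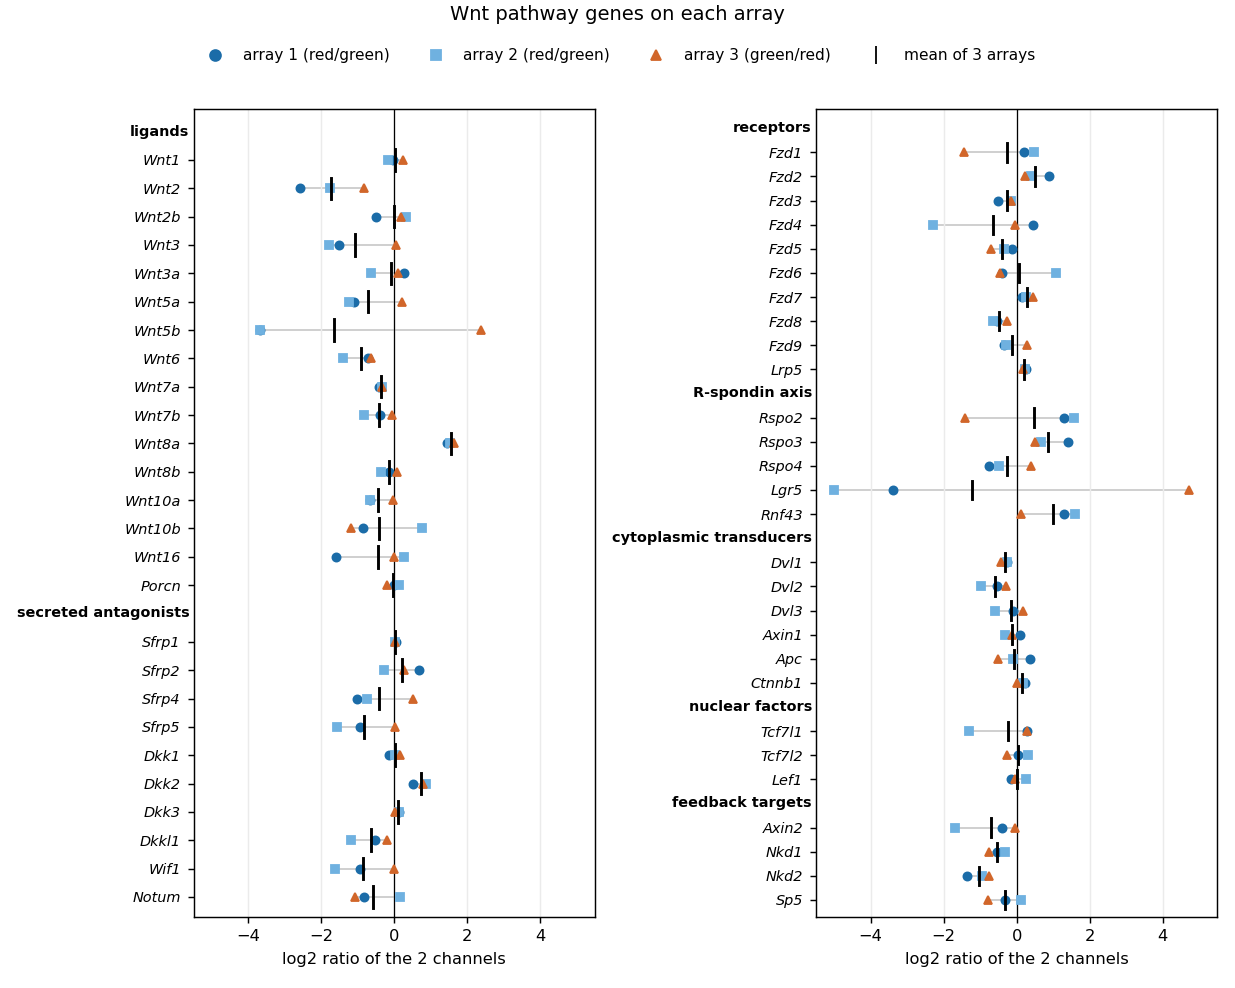
Log2 ratio of the 2 channels (x axis) for each of the 54 Wnt genes, grouped by role. Symbols are single arrays with their dye order, and the black bar is the mean of the 3 arrays. Wnt8a is tight and positive, Wnt2 is negative on every array, and Wnt5b, whose array 1 and 2 symbols coincide, and Lgr5 have array 3 on the opposite side of 0.

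Among the ligands, 14 of 16 genes, counting Porcn, had a negative mean, with a median of -0.42. Wnt2, a ligand best known from lung mesenchyme, had log2 ratios of -2.58, -1.76 and -0.84 on arrays 1 to 3. All of them were negative, and the mean of -1.73 ± 0.87 (SD, n = 3) corresponds to a 3.31-fold ratio, with only 0.933% of all genes lower (limma adjusted p = 0.173). Wnt6, which is made by embryonic epithelia, had -0.72, -1.40 and -0.64. It too was negative throughout, at a mean of -0.92 ± 0.42 and an adjusted p of 0.178 by limma.

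Wnt8a, a ligand known from the gastrulating mouse embryo, was the ligand with the highest mean. It had 1.45, 1.54 and 1.65 on arrays 1 to 3, a mean of 1.54 ± 0.10 and a 2.92-fold ratio. The arrays lay close together in both dye orders, 0.883% of all genes had a higher mean, and the adjusted p by limma was 0.149.

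The ligands Wnt3, Wnt5a and Wnt5b differed between array 3 and the other arrays. Wnt3 had -1.52, -1.80 and 0.06, and Wnt5a, a ligand of outgrowing limbs and body axis that acts largely without beta-catenin, had -1.11, -1.24 and 0.20. Both were well below 0 on arrays 1 and 2 and near 0 on array 3, with means of -1.09 ± 1.00 and -0.72 ± 0.80. Wnt5b, its close relative, had -3.67, -3.67 and 2.38, so that its mean of -1.65 ± 3.50 lay between arrays of opposite sign.

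The other ligands had smaller means. Wnt7a had -0.42, -0.33 and -0.33, a small negative ratio with little spread, at a mean of -0.36 ± 0.05 (limma adjusted p = 0.271). Wnt7b, which in the mouse kidney patterns the collecting duct system and medulla, had -0.39, -0.82 and -0.06, and Wnt10a had -0.65, -0.65 and -0.04. Both were negative on all 3 arrays, though near 0 on array 3, and neither had an unadjusted p under 0.05. Wnt10b and Wnt16 had arrays on both sides of 0 with means of -0.43 ± 1.04 and -0.45 ± 1.00. Wnt8b had a mean of -0.15 ± 0.22 and Wnt3a of -0.09 ± 0.49. Wnt1 at 0.02 ± 0.21, Wnt2b at -0.000067 ± 0.436 and Porcn, the enzyme that attaches the lipid to Wnts, at -0.02 ± 0.16 lay near 0.

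Some Wnt genes are neighbours in the genome, with 0 other protein-coding genes between them in RefSeq's mouse annotation (GRCm38.p6), and differences between neighbours were not tested. Wnt6 and Wnt10a, both negative on every array as deposited, had means of -0.92 and -0.45. Wnt3 had -1.09 while Wnt9b beside it had 0.24, and Wnt10b had -0.43 while Wnt1 had 0.02. Of the kidney's known inducers outside the 54 genes, Wnt4 had 1.09, 0.97 and 1.02 on arrays 1 to 3, Wnt9b a mean of 0.24 ± 0.04 and Wnt11 a mean of 0.20 ± 0.23. Wnt4 thus shared its sign and its agreement between arrays with Wnt8a.

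Of the 10 receptor genes, 4 had positive and 6 negative means, with a median of -0.19. That median was not steady, at -0.0789 without array 1, -0.0247 without array 3 and 0.0256 with array 3 turned. Fzd8, a Frizzled receptor, had -0.53, -0.65 and -0.27 on arrays 1 to 3. It was negative throughout at a mean of -0.48 ± 0.19 and a limma adjusted p of 0.228, and was the receptor at an unadjusted p under 0.05. Fzd2 had 0.88, 0.40 and 0.24, positive throughout at a mean of 0.51 ± 0.33 (limma adjusted p = 0.276).

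Fzd5 had -0.14, -0.34 and -0.70, and Fzd7 had 0.13, 0.24 and 0.45, each of constant sign, with means of -0.39 ± 0.29 and 0.28 ± 0.16. Fzd3 was negative on every array at -0.28 ± 0.21. The co-receptor gene Lrp5 had 0.24, 0.23 and 0.17, a small positive ratio of 0.21 ± 0.04. The arrays disagreed for the remaining receptors. Fzd4 had 0.43, -2.30 and -0.05, so that array 2 alone was far from 0, and Fzd1 had 0.20, 0.47 and -1.45. Fzd6 and Fzd9 had means of 0.08 ± 0.86 and -0.12 ± 0.35.

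The secreted antagonists were split evenly, 5 positive and 5 negative, with a median of -0.20. Dkk2, which binds Lrp5 and Lrp6 and can block or aid them, had 0.52, 0.87 and 0.77 on arrays 1 to 3. All arrays were positive, with a mean of 0.72 ± 0.18, a 1.65-fold ratio and a limma adjusted p of 0.168. The related Dkk1, a potent inhibitor of Lrp5 and Lrp6, had -0.14, 0.01 and 0.15 and a mean of 0.01 ± 0.15, and Dkk3 had 0.09 ± 0.06. Dkk2 was thus the Dickkopf gene furthest from 0, although differences between these genes were not tested.

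Wif1, which binds Wnt proteins outside the cell, had -0.94, -1.63 and -0.01, and Sfrp5, a secreted Frizzled-like protein, had -0.94, -1.57 and 0.03. Both were clearly negative on arrays 1 and 2 and near 0 on array 3, with means of -0.86 ± 0.81 and -0.83 ± 0.80 (limma adjusted p = 0.310 and 0.319). Dkkl1, a Dickkopf-like gene, was negative on every array at -0.64 ± 0.50 (limma adjusted p = 0.283). Notum, an enzyme that removes the lipid from Wnts, had -0.83, 0.15 and -1.08, and Sfrp4 had -1.03, -0.74 and 0.53. Sfrp2 had a mean of 0.22 ± 0.49. Sfrp1 had 0.03 ± 0.02, but this average hid 2 probes with means of -0.15 and 0.22.

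The R-spondin axis was the role group with the highest median, 0.48 over 5 genes, which is the mean of Rspo2, a gene whose arrays disagree. The median was 0.0719 without array 1, 1.04 without array 3, 0.99 with array weights and 0.27 with a dye term. R-spondins are secreted proteins that bind Lgr receptors and keep the ligases Rnf43 and Znrf3 from clearing Frizzled from the cell surface, which strengthens a Wnt signal, and in the mouse kidney Rspo1 and Rspo3 sustain nephron progenitors. Rspo3 had 1.41, 0.68 and 0.50 on arrays 1 to 3, positive throughout at a mean of 0.86 ± 0.48 (limma adjusted p = 0.201). Rnf43 had 1.31, 1.59 and 0.11, so that it was high on arrays 1 and 2 and near 0 on array 3, with a mean of 1.00 ± 0.79. Its unadjusted p of 0.0499, at an adjusted p of 0.255 by limma, lay at the edge of the threshold.

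Rspo1, outside the 54 genes, had 1.13, 1.49 and 0.64, a mean of 1.08 ± 0.43 on the same side as Rspo3. Rspo2 had 1.30, 1.56 and -1.42, and Rspo4 had -0.75, -0.48 and 0.40, each with array 3 on the opposite side. The same held, at a much larger size, for Lgr5, the R-spondin receptor that marks stem cells in adult gut, with -3.38, -5.002 and 4.73. Its SD of 5.22 was larger than that of 99.9% of all genes, and its mean of -1.22 says nothing of a shared direction.

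The cytoplasmic transducers had small ratios, with 5 of 6 means negative. The 3 Dishevelled proteins carry the signal from Frizzled to the destruction complex. Dvl2 had -0.53, -0.99 and -0.28 on arrays 1 to 3, negative throughout at -0.60 ± 0.36 (limma adjusted p = 0.240). Dvl1 was also negative on every array, at -0.27, -0.26 and -0.42, with a mean of -0.32 ± 0.09 (limma adjusted p = 0.317). Dvl3 had arrays on both sides at -0.17 ± 0.39.

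Ctnnb1, the gene of beta-catenin, had 0.23, 0.16 and 0.02, a mean of 0.14 ± 0.10. Axin1, the scaffold of the complex that degrades beta-catenin, had -0.12 ± 0.21. Apc, another part of that complex, had -0.07 ± 0.44 from 3 probes whose means were 0.24, -0.17 and -0.29. The nuclear factors had Lef1 at 0.02 ± 0.21, Tcf7l2 at 0.03 ± 0.29, from probes of -0.12 and 0.18, and Tcf7l1 at -0.25 ± 0.91, where array 2 stood apart at -1.30. None of these 6 genes had an unadjusted p under 0.05.

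The 4 genes grouped here as feedback targets all had negative means, with a median of -0.62. Wnt signalling through beta-catenin switches such genes on in many tissues. With array 3 turned the median of the 4 was -0.27 and Sp5 was positive at 0.20. Members placed in other groups can be targets too, among them Rnf43 at 1.00, Lef1 at 0.02, Dkk1 at 0.01 and Notum at -0.59. Nkd2, a Dishevelled-binding inhibitor, had -1.36, -0.94 and -0.75 on arrays 1 to 3, a mean of -1.02 ± 0.31 and a 2.03-fold ratio (limma adjusted p = 0.159). Its relative Nkd1 had -0.53, -0.31 and -0.74, a mean of -0.53 ± 0.22 (limma adjusted p = 0.217). Both Naked cuticle genes were thus negative on every array and in both dye orders.

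Axin2, the most widely used readout of the pathway, had -0.39, -1.68 and -0.04, also negative throughout as deposited. Its array 3 value was near 0 and above the median of all genes on that array, -0.06. The mean of -0.70 ± 0.86 leant on array 2 (limma adjusted p = 0.396). Sp5, a transcription factor gene, had -0.31, 0.12 and -0.79, with array 2 on the other side of 0 and a mean of -0.33 ± 0.46.

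The promoters of these 4 feedback targets are shown because the genes lay on 1 side together. They are the 250 bases before the gene start in RefSeq's table (GRCm38.p6), read 5′ to 3′ on the gene's strand. Capitals mark letters of the TCF and LEF core, searched as CTTTG followed by 2 letters that are each A or T, on both strands.
Nkd2, chr13:73847632-73847881, minus strand: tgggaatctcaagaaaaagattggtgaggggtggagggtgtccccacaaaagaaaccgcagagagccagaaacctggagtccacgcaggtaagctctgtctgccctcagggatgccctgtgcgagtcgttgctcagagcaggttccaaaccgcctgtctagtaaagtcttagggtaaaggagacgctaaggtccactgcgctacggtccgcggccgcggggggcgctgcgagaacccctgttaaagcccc
Nkd1, chr8:88527383-88527632, plus strand: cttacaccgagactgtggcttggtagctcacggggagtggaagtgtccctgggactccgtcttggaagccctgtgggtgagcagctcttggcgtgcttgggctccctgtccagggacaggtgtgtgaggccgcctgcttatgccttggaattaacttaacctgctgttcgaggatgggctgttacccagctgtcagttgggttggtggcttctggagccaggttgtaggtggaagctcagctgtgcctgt
Axin2, chr11:108920099-108920348, plus strand: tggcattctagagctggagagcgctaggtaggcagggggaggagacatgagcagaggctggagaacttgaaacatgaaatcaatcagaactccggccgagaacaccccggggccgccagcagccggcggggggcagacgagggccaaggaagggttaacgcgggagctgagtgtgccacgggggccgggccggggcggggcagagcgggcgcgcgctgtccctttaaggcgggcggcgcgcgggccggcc
Sp5, chr2:70474673-70474922, plus strand: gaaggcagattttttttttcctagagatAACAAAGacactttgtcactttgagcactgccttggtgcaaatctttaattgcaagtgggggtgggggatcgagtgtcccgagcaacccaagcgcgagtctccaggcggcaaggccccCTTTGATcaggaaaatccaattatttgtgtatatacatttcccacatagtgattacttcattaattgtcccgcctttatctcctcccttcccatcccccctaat
Sp5 held 2 matches, 1 on each strand, and the windows of Nkd1, Nkd2 and Axin2 held none of these letters. Of the 54 genes 35 were in the table by symbol, and 6 of them (17.1%) had a match, against 16.8% of 27025 genes. The other members with a match were Dkk1, Fzd7, Lef1, Tcf7l2 and Wnt5b. A match describes letters in this window and not a bound site.

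A number of Wnt members differed in sign between arrays 1 and 2 and array 3. In all, 11 members were negative on arrays 1 and 2 and positive on array 3, which is 20.4% of them beside 10.2% of all genes, and 3 had the reverse pattern (5.56% against 15.5%). With array 3 turned these 11 are the members negative on every array. Of them, 5 were ligands (Wnt1, Wnt3, Wnt5a, Wnt5b and Wnt8b), and the others were Fzd9, Sfrp4, Sfrp5, Rspo4, Lgr5 and Dvl3. The ligands' median was -0.57 on array 1 and -0.51 on array 2, against 0.02 on array 3.

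A dye term, which here sets array 3 alone against arrays 1 and 2 and takes its error from the spread of those 2 arrays and limma's moderation, had an unadjusted p under 0.05 for 6 members with arrays 1 and 2 below array 3 (11.1%, against 4.73% of all genes) and for 3 with arrays 1 and 2 above (5.56%, against 5.14%). None of these differences passed adjustment by limma. Described by rank over the 54 genes, the arrays of the same dye order had a Spearman correlation of 0.574, while array 3 had 0.168 with array 1 and -0.0574 with array 2. The matching values over all genes were 0.501, 0.258 and 0.208. Pearson's r over the 54 genes was 0.757, -0.35 and -0.525 for the same pairs, against 0.365, 0.0644 and 0.0219 over all genes. The cause of the difference was not tested.

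**Figure D2:**
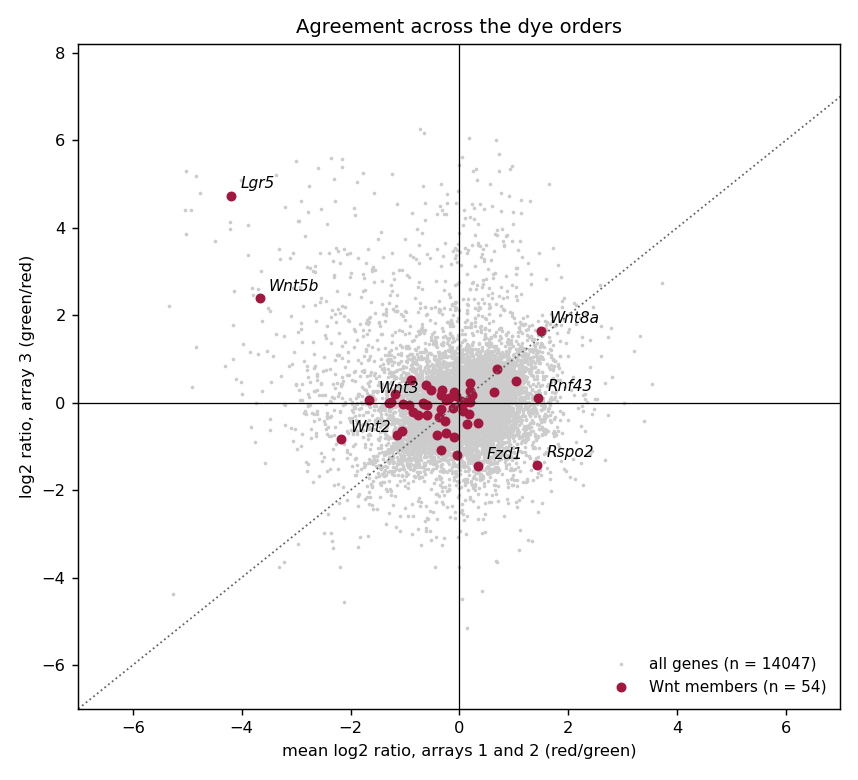
Mean log2 ratio of arrays 1 and 2 (x axis) against the log2 ratio of array 3 (y axis), for all genes in grey and the 54 Wnt genes in red. Points on the dotted line have the same ratio in both dye orders. Wnt8a lies on it, while Lgr5 and Wnt5b lie in the upper left, where 11 Wnt genes are negative on arrays 1 and 2 and positive on array 3.

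With the dye term in the fit, 3 members were positive and 8 negative at an unadjusted p under 0.05, which is 5.56% against 10.7% of all genes and 14.8% against 10.6%. Wnt3 at -0.80, Wnt5a at -0.49, Wnt5b at -0.64 and Fzd1 at -0.56 were added, and Rspo3, Fzd8 and Dvl2 no longer met that threshold. The p of Wnt5b leans on arrays 1 and 2 having had the same ratio. Of the 10 members at an unadjusted p under 0.05 in the plain fit, Wnt8a and Nkd2 stayed under it in 11 of 12 other settings, Wnt6 and Dkk2 in 10, Wnt2 in 9, Fzd8 in 8, and Rnf43, Rspo3, Dvl2 and Nkd1 in 7. Not among the 12 were values on 2 arrays and each probe on its own, with counts of 3 positive and 6 negative in each. Median joining of probes, robust or no moderation and limited extreme values left all 10 means unchanged. The sign stayed the same for all 10 in the 12 settings, although with array 3 turned none met the threshold, and Wnt3, Wnt5a, Wnt5b, Sfrp4, Rspo2 and Lgr5 met it in their place.

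**Figure D3:**
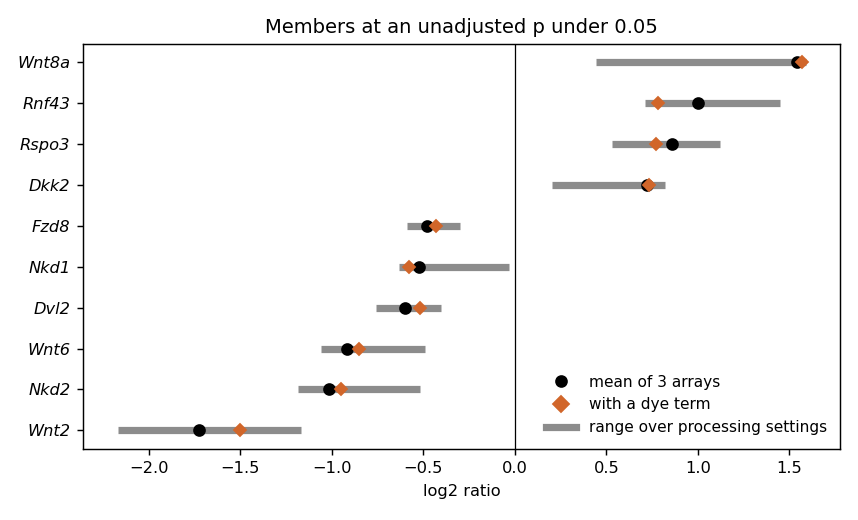
Log2 ratio (x axis) of the 10 Wnt genes at an unadjusted p under 0.05. Black points are means of the 3 arrays, orange diamonds are estimates with a dye term, and grey bars span the lowest to the highest value over the processing settings. No bar crosses 0, and that of Nkd1 ends nearest to it.

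The other genes of the pathway were described from a separate list of which 84 had values. Their median was -0.06, and at an unadjusted p under 0.05, 10 were positive (11.9%, against 9.89% of all genes) and 13 negative (15.5%, against 9.69%), with 0 past the adjusted threshold by limma. On the positive side Tle2, a corepressor that binds TCF factors, had 0.98, 1.69 and 1.79, a mean of 1.49 ± 0.44, and the planar polarity gene Prickle2 had a mean of 0.86 ± 0.24.

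On the negative side were Msx1, a homeodomain factor gene that is also a limb marker, at -1.44 ± 0.43, the kinase gene Csnk1g2 at -1.36 ± 0.29, and the ephrin receptor gene Ephb3, a target in gut epithelium, at -1.24 ± 0.15. The chromatin remodeller gene Smarca4 at -1.09 ± 0.10 and the binding protein gene Igfbp4 at -1.08 ± 0.42 followed. All 7 were of constant sign across the arrays, and by limma their adjusted p lay between 0.149 and 0.165. Among 26 further targets on the list, 2 were positive at an unadjusted p under 0.05 (7.69%, against 9.89% of all genes). On the negative side there were 5 (19.2%, against 9.69%). The list's target group had a median of -0.06, against -0.62 for the 4 feedback targets. By the same measure, 9 genes of ligand secretion and co-receptors had a median of -0.46 and 18 nuclear cofactors one of 0.03.

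**Figure D4:**
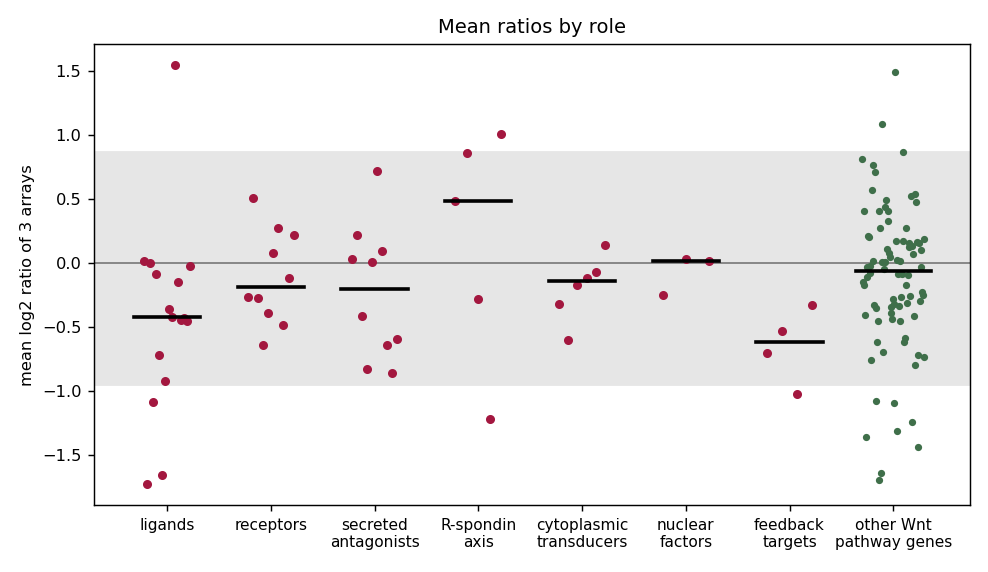
Mean log2 ratio over the 3 arrays (y axis) by role, for the 54 Wnt genes in red and 84 other Wnt pathway genes in green. Each point is a gene, black bars are group medians, the grey line is the median of all genes and the grey band spans their 5th to 95th percentiles. Most ligands lie below 0, some of them close to it, and Wnt8a is the highest of them. The R-spondin axis has the highest median and the 4 feedback targets are all below 0.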

How the data were processed

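Per the labels' descriptions, spots were read with Imagene 5.5 and the authors applied print-tip lowess, with 20% of the data entering each local fit, and a normalization between arrays, in R. A control channel below 10 was raised to 10. The authors deposited log2 ratios of the channels, used as given. No genome build is stated. Spot intensities were not used here, so dim spots could not be recognised, and precision is limited by there being 3 arrays.

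Of 22702 rows, 19660 gene probes had a value on all 3 arrays. Probes were named through the platform annotation (16656 with 1 symbol, 137 with several, 5026 with none) and averaged per gene. All 54 members kept their symbol in RefSeq by Entrez identifier. The labels do not say whether array 3 was turned before deposit. It was kept as deposited by a rule on the sign of its Pearson correlation over probes. That was barely above 0 with array 1 (0.0517) and array 2 (0.0148), and below 0 over the 54 members (-0.35 and -0.525). Spearman correlations for the same pairs were 0.211 and 0.171 over probes, and 0.168 and -0.0574 over the members. The direction of array 3 was not tested.

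A two-sided test of the mean ratio against 0 used limma 3.58.1 (lmFit, eBayes) under R 4.3.3, adjusted by Benjamini-Hochberg over 14047 genes. The fit was first run on simulated arrays drawn independently of each other. That checks the code and not the error rate on these arrays. Values after ± are SDs over 3 arrays. Alternatives were median centring, scaling, a dye term, array 3 turned, each array left out, values on 2 arrays, other ways of joining probes, robust or no moderation, array weights and limited extreme values. Every member was named, and values per array were given for all members at an unadjusted p under 0.05. The other members with values per array were picked by no fixed rule, some of them because their arrays disagreed. Other pathway genes were named at an unadjusted p under 0.05 and a mean of at least 0.8 in size, and markers as examples. The members and lists were chosen with earlier results of these data known. Matplotlib 3.10.9 (Python 3.11.15) drew the figures.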

Additional observations from a re-analysis of the deposited data

How the results depend on the processing

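Counts at the adjusted threshold stayed at 0 for members and for all genes in every setting run by limma, including the test of each probe on its own, while 2750 genes had an unadjusted p under 0.05. With array 3 turned, which assumes that its sign was never adjusted for the dye order, the unadjusted counts were 779 for all genes, 1 positive and 5 negative members, all outside the 10 named before, and, for the other Wnt pathway genes, 3 positive and 0 negative, and 3 members were positive and 11 negative on every array. Array weights gave 5 positive and 13 negative members, while the count over all genes, of either sign, rose to 3979. Leaving out an array gave 1156 to 2943 genes, of either sign, at an unadjusted p under 0.05. Members then counted 1 to 5 positive and 3 to 14 negative, and other pathway genes 3 to 11 positive and 5 to 11 negative. On each remaining array, 12 to 13 members were positive and 18 to 26 negative. Fewer arrays have to share a sign there than with all arrays, which raises such counts for any genes. The matching shares of all genes are not given here, so these counts say nothing of Wnt genes in particular. The highest counts of negative members came without array 3, where both remaining arrays share a dye order.

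Some genes changed sign. Fzd5, Fzd7 and Wnt11, whose arrays share a sign as deposited, did so with array 3 turned, as its ratio outweighed those of arrays 1 and 2. Why array 3 lay further from 0 for them was not tested. With array 3 turned, Wnt1 had -0.14, Wnt10b 0.37, Porcn 0.11, Fzd1 0.71, Fzd5 0.0759, Fzd7 -0.0246, Dkk1 -0.0945, Notum 0.13, Apc 0.26, Sp5 0.20, Wnt11 -0.11 and Kremen1 -1.33. With array weights Wnt1 had -0.0209, Wnt3a 0.0438, Fzd1 0.0335, Fzd6 -0.0698, Dkk1 -0.0650, Apc 0.15, Lef1 -0.0538 and Kremen1 -0.95. With the dye term Wnt2b had 0.0440, Fzd6 -0.0569, Lgr5 0.27 and Tcf7l2 -0.0429, and median centring gave Dkk1 -0.0060. With an array left out, Wnt1 ran from -0.10 to 0.11, Wnt2b from -0.16 to 0.25, Wnt3a from -0.26 to 0.19, Wnt16 from -0.81 to 0.12, Porcn from -0.10 to 0.0625, Fzd1 from -0.63 to 0.33, Fzd4 from -1.17 to 0.19, Fzd6 from -0.42 to 0.34, Sfrp2 from -0.0146 to 0.48, Dkk1 from -0.0645 to 0.0815, Rspo2 from -0.0598 to 1.43, Lgr5 from -4.19 to 0.67, Dvl3 from -0.34 to 0.0438, Apc from -0.30 to 0.14, Tcf7l1 from -0.52 to 0.28, Tcf7l2 from -0.11 to 0.18, Lef1 from -0.10 to 0.11 and Kremen1 from -0.69 to 1.82. No paired analysis was possible because the 3 arrays form 1 group. Signal over background was not analysed here, so ratios of dim spots could not be set apart.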

Other observations

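Of the other pathway genes, 4 with large ratios and arrays far apart were picked out after their values were seen, and stand for no group. Kremen2, a Dickkopf receptor, had log2 ratios of -1.51, -3.24 and -0.34 on arrays 1 to 3, Ror2, a receptor of Wnt5a, had -0.56, -3.36 and -0.99, and the planar polarity cadherin gene Celsr1 had -0.52, -3.82 and 0.42. Kremen1, the other Dickkopf receptor, had -2.41, 1.03 and 2.60. Kremen2 and Ror2 were negative on every array, and none of the 4 had an unadjusted p under 0.05 by limma.

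Some pathway genes had values on fewer arrays. Those with 2 values were fitted only in the setting that allows values on 2 arrays. None of them is in the counts of members or of other pathway genes. Frzb, a secreted Wnt antagonist, had -1.16 on array 1 and -2.11 on array 3, the same sign on both. Ptk7, a planar polarity co-receptor, had -0.09 on array 2 and -3.25 on array 3, and Celsr2 had 0.21 on array 1 and 0.20 on array 3.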
